A study of Mus musculus with 14 samples.

Results

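The genes described here are 43 components of the unfolded protein response (UPR) and of the machinery that brings proteins into, folds them in and exports them from the endoplasmic reticulum (ER). They were chosen by function and given by symbol, with no threshold on a measured value, and all 43 were found among the 53278 genes of both the count tables and the TPM tables. By role they comprise 6 sensors and transcription factors, 12 chaperones and their partners, 5 disulfide and proline isomerases, 7 components of ER-associated degradation, 11 of translocation and signal peptide cleavage, and 2 of the COPII coat. All 43 had enough counts to be tested in both experiments.

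Expression was measured by RNA-seq in lung group 2 innate lymphoid cells (ILC2s), which release type 2 cytokines such as IL-5 and IL-13. The cells were sorted from individual female mice as live, lineage-, CD90.2+ and CD3-, and 14 libraries were made in 2 experiments. In the stimulation experiment, ILC2s of B6 mice were left unstimulated (n = 4) or given IL-33 (n = 4), a cytokine that damaged tissue releases, for 24 h at 20 ng/mL. In the Blimp-1 experiment, ILC2s of Control mice (labelled ControlIL7RaCre, n = 3) and of Blimp-1-deficient mice (labelled Blimp-1IL7RaCre, n = 3) were all cultured for 72 h in 20 ng/mL IL-33 plus 20 ng/mL IL-25. The Cre is driven by the IL7Ra gene and removes floxed Blimp-1 from all ILC subsets and from T, B and NK cells, so these ILC2s developed in mice that lacked Blimp-1 in other lymphocytes too. The general culture methods add IL-2 at 20 ng/mL to sorted ILC2s, and the RNA-seq methods name it for the 72 h culture only. The labels list no IL-2, so whether the 24 h cultures held it is unclear. Unstimulated cells are described as cultured for 24 h without IL-33 in the methods and as ex vivo in the results of the study, and the effect of IL-33 cannot be told apart from that of culture if the latter holds. The mice were older than 6 weeks, and those of the Blimp-1 experiment were matched for age.

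The ER of a secreting cell senses misfolded protein through 3 membrane proteins, encoded by Ern1 (IRE1α), Eif2ak3 (PERK) and Atf6. IRE1α cuts Xbp1 mRNA so that it encodes an active transcription factor, PERK favours translation of ATF4, and ATF6 is released by proteolysis. Together these factors raise chaperones, oxidoreductases, the translocon and the degradation machinery. In B cells that become plasma cells, Blimp-1, encoded by Prdm1, acts upstream of this secretory program, and the question of the second comparison was whether its loss lowers the same genes in ILC2s.

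The sequence element through which ATF6 and XBP1 act on many of these genes is the ER stress response element (ERSE), and the members that carry it are shown as the sequence context of these genes. All 8 that carry it are among the 33 of 43 members that rose after IL-33, most of which lack a match or were not searched, so no link is read from this. The promoter table of RefSeq for GRCm38.p6 held 34 of the 43 members, with 38 promoters. Derl1, Sec61a1, Tram1, Sec11c, Atf6, Spcs3, Ssr2, Manf and Hyou1 were not matched. The 250 bases before each RefSeq transcription start were searched on both strands. The ERSE was searched as CCAAT and CCACG separated by any 9 bases, with no mismatch allowed. It was found in 8 of the 38 member promoters and in 37 of the 32851 promoters of the table (0.113%). The 9 sites are given below with 5 bases on either side, read 5′ to 3′ along the strand of the gene, with the matched letters in capitals. In Calr, in Creld2 and in one site of Hsp90b1 the element lies on the opposite strand and therefore reads CGTGG and then ATTGG.
Calr, chr8:84847070-84847098: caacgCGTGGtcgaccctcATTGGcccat
Canx, chr11:50325795-50325823: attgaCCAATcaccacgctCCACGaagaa
Creld2, chr15:88819515-88819543: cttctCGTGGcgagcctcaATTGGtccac
Dnajc3, chr14:118937822-118937850: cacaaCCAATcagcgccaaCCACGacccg
Hsp90b1, chr10:86705528-86705556: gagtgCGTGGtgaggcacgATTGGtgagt
Hsp90b1, chr10:86705633-86705661: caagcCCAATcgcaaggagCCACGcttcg
Hspa5, chr2:34772020-34772048: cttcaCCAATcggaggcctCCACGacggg
Pdia6, chr12:17266486-17266514: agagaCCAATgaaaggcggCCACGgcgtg
Syvn1, chr19:6046527-6046555: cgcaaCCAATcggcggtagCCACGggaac

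The matches began between 44 bases (Syvn1) and 212 bases (Hsp90b1) before the RefSeq start. The annotated start of Hspa5 in GENCODE lies upstream of that of RefSeq, so its site falls inside the longer gene model. The promoter of Creld2, the chaperone partner with the largest rise after IL-33, is given whole as an example of the setting, at chr15:88819396-88819645 on the plus strand, with the element in capitals.
Creld2: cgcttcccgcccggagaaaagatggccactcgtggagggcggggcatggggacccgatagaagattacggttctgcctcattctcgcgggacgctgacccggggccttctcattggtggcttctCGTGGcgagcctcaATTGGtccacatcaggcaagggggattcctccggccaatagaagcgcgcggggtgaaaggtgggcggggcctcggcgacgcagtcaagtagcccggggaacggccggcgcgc

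The related ERSE-II (ATTGG and CCACG separated by any 1 base) was found in Herpud1 and in 0.0304% of all promoters. The UPR element TGACGTGG was found in Sec24d and in 0.563% of all promoters, and the ATF4 element TGATGCAA in Herpud1 and in 0.791%. The letters AGTGAAAG, a core that Blimp-1 can bind, were in none of the 38 member promoters and in 1.09% of all promoters. As for Hspa5, the annotated start of Sec24d in GENCODE lies upstream of that of RefSeq, so its element falls inside the longer gene model. These matches describe the letters in these windows and no binding was measured.
Herpud1, ERSE-II, chr8:94386372-94386392: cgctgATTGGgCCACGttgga
Herpud1, ATF4 element on the opposite strand, chr8:94386312-94386329: gcgggTTGCATCAgcccg
Sec24d, chr3:123267465-123267482: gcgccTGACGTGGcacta

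Depth ranged from 21939818 to 32791051 counts in the unstimulated libraries, from 10470125 to 32849428 in the IL-33 stimulated, from 13570188 to 76202537 in the Control and from 60715362 to 76448945 in the Blimp-1-deficient. A library in each experiment stood apart. Control replicate 2 had 76.8% of its counts on 7 loci, among them ribosomal and mitochondrial RNA, where the other 13 libraries had 0.258% to 4.12%, and only 3150795 counts fell elsewhere. IL-33 stimulated replicate 3 was the shallowest of its experiment and had the 4.12%. Counts of members and the figures of their changes are therefore given with all libraries and without the library in question. The lowest count of any member was 37 in Control replicate 2, 61 in IL-33 stimulated replicate 3 and 205 elsewhere. Prdm1 was 75.2, 92.8 and 74.0 CPM in the Controls, where CPM stands for counts after TMM normalization, given per 1000000. The Blimp-1-deficient libraries had 14.6, 11.5 and 11.4 CPM. The groups did not overlap and the log2 fold change was -2.68 (SE 0.15, edgeR adjusted p = 0.00441). Without Control replicate 2 it was -2.57 (SE 0.11, adjusted p = 0.000134). In the IL-33 experiment Prdm1 was 88.9, 70.3, 64.5 and 95.9 CPM in unstimulated and 71.4, 76.9, 34.5 and 53.5 CPM in stimulated libraries, overlapping groups with a log2 fold change of -0.43 (SE 0.25, adjusted p = 0.213), and of -0.25 without replicate 3 (adjusted p = 0.2). All 14 ILC2 markers on the list, including Gata3, Il1rl1, Il5 and Il13, were detected in both experiments. After IL-33, 4 of them rose (Areg, Il5, Il13 and Il2ra) and 9 fell, among them Gata3 (log2 fold change -0.69), Il1rl1 (-0.87) and Thy1 (-2.52), the gene of the sorting marker CD90, and the part of this in the members' values was not tested. In the Blimp-1 experiment 0 of the 14 passed with all libraries, where 0.45% of all genes tested rose and 0.306% fell. The count of these markers without Control replicate 2 is not given.

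Per transcript length, the members spanned a wide range of levels before any stimulation. The TPM of the 43 members summed to between 11886 and 13147 in the unstimulated libraries. A mean of at least 100 TPM was reached by 31 members, a count given without the share of all genes at that level. Pdia3, a disulfide isomerase that works with the lectin chaperones, had the highest mean level, 1479 ± 86.1 TPM (SD, n = 4). Calr followed with 1202 ± 92.9 TPM and Hsp90b1 with 1097 ± 82.9 TPM, a difference between neighbours that is smaller than the sum of their SDs. The transcription elongation factor Ell2 had the lowest, 14.9 ± 0.911 TPM, below Ddit3 at 20.6 ± 2.96 TPM.

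IL-33 stimulated ILC2s had more RNA of most of these genes than unstimulated ILC2s. With all libraries, 33 of the 43 members rose and 0 fell (edgeR quasi-likelihood test, Benjamini-Hochberg adjusted p below 0.05 over 15466 genes), where 16.2% of all genes tested rose and 16.1% fell. At an unadjusted p below 0.05 the count was 35 higher and 2 lower, where 22.6% and 21.3% of all 15466 genes tested lay. DESeq2 called 35 higher and 2 lower, against 11.7% and 11.3% of the 28268 genes for which it gave a log2 fold change. That total has no such filter on low counts. It also holds any gene left without an adjusted p, so these shares can be too low. The median log2 fold change of the members was 0.79, against 0.06 over all genes tested, with a range of -0.49 to 2.13. On log2(TPM + 1), log2(TPM + 0.1) and rescaled TPM, 24, 24 and 25 members rose and 5 fell on each, with medians of 0.45, 0.45 and 0.46. With library size alone, 30 rose and 4 fell. The shares of all genes that fell under these alternatives, and their medians on the TPM scales, are given with the processing. The shares of all genes that rose on the TPM scales are given with the other pathway genes. With library size alone the share that rose is not given. Without IL-33 stimulated replicate 3, 36 members rose and 2 fell, with backgrounds of 27.5% and 29.7%, and the median was 0.89 against -0.05. In 31 members every stimulated library lay above every unstimulated one, in 1 (Ddit3) every stimulated library lay below, and 11 overlapped, where 17% and 20.9% of all genes tested were separated in these directions. In bulk RNA, a change in RNA per cell and a change in the share of the cells that contain it cannot be told apart.

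**Figure D1:**
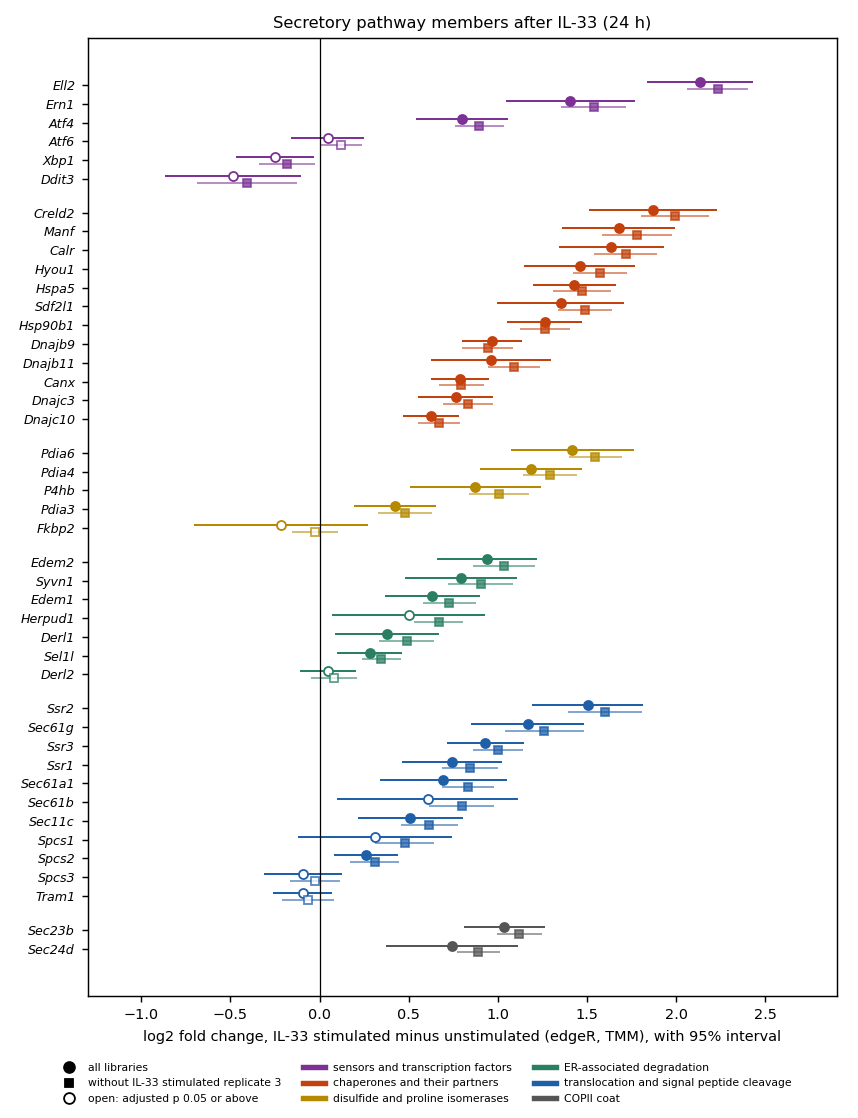
Each row is a member, grouped and coloured by role, and the horizontal axis is its log2 fold change, IL-33 stimulated minus unstimulated, with the 95% interval (circles, all 8 libraries; squares, without IL-33 stimulated replicate 3; filled symbols, edgeR adjusted p below 0.05). All 12 chaperones and partners lie to the right of 0, from 0.62 for Dnajc10 to 1.87 for Creld2, while Xbp1 and Ddit3 lie to the left.

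The summed CPM of the members gives the scale of this difference. It ranged from 11731.5 to 13490.7 in the unstimulated libraries and was 25559.8, 25257.9, 20723.8 and 26821 in the 4 stimulated ones. The groups did not overlap, and IL-33 stimulated replicate 3, the third value, was the lowest of its group. It was also the lowest stimulated library for 41 of the 43 members taken singly.

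Among the sensors and transcription factors, 3 of 6 rose. Ern1, which encodes the sensor IRE1α, was 111, 111, 109 and 122 CPM in unstimulated and 372, 293, 215 and 320.3 CPM in stimulated ILC2s. Every stimulated library was above every unstimulated one, and the log2 fold change was 1.41 (SE 0.15, edgeR adjusted p = 0.000349). Atf4, the factor translated when PERK is active, was 164, 170.3, 174 and 189 CPM against 315, 318, 241 and 340.1 CPM, again without overlap, and rose by 0.80 on the log2 scale (SE 0.11, adjusted p = 0.00102). Ell2, an elongation factor that in plasma cells favours the secreted form of immunoglobulin mRNA, was 43.3, 42.97, 38.6 and 43.9 CPM against 189.9, 185, 145 and 220.2 CPM. It had the largest rise of all members, 4.39-fold (log2 2.13, SE 0.13, adjusted p = 2.16e-05).

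The other 3 of this role behaved differently. Xbp1 was 305, 272, 288 and 266 CPM in unstimulated and 240.5, 238, 204 and 268 CPM in stimulated ILC2s, so that only 1 stimulated library reached the unstimulated range. Its log2 fold change was -0.25 (SE 0.09, edgeR adjusted p = 0.0714), and without IL-33 stimulated replicate 3 it was -0.18 (adjusted p = 0.0384), past the threshold. Ddit3, which encodes the pro-apoptotic factor CHOP, was 8.92, 11.1, 9.31 and 11.3 CPM against 7.98, 7.71, 6.01 and 7.26 CPM, low in every library. The groups did not overlap, with a log2 fold change of -0.49 (SE 0.16, adjusted p = 0.0537) that was -0.41 without replicate 3 (adjusted p = 0.0171). Both values were below 0 under all 17 alternatives, and passed the threshold in 9 of them for Xbp1 and 8 for Ddit3. Atf6 was 111 to 121 CPM against 101 to 129 CPM, overlapping groups with a log2 fold change of 0.04 (adjusted p = 0.718).

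Total Xbp1 RNA does not show how much of it is processed. IRE1α removes 26 bases from the coding sequence in exon 4 of the transcript ENSMUST00000063084.15, at chr11:5524279-5524304 of GRCm38 on the plus strand. The stretch is given in capitals with its flanks, because a count per gene takes reads of the cut and of the uncut form alike, and the shares of the forms cannot be read from these tables.
Xbp1: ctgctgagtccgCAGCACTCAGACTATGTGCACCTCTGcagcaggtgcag

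All 12 chaperones and their partners rose, with and without IL-33 stimulated replicate 3, and the median of the group was 1.31 on the log2 scale. The same 12 passed the threshold under library-size scaling and on TPM. Hspa5, the Hsp70 chaperone BiP that holds the UPR sensors inactive, was 940.0, 775, 934 and 873 CPM in unstimulated and 2461, 2399, 2169 and 2457 CPM in stimulated ILC2s. The lowest stimulated library was far above the highest unstimulated one, and the rise was 2.69-fold (log2 1.43, SE 0.10, edgeR adjusted p = 4.12e-05). Calr, the lectin chaperone calreticulin, was 1093, 883, 1056 and 975 CPM against 3185, 3220.2, 2576 and 3469 CPM. It rose 3.11-fold (log2 1.64, SE 0.13, adjusted p = 6.82e-05) and became the most abundant member per length, at 2983 ± 428 TPM (SD, n = 4).

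Hsp90b1, the ER Hsp90 known as GRP94, was 1292, 1154, 1342 and 1323 CPM against 3139, 3053, 3043 and 3018 CPM. Its 4 stimulated libraries were nearly level, including replicate 3, and the log2 fold change was 1.26 (SE 0.09). Canx, the membrane-bound lectin chaperone calnexin, showed the same evenness at a smaller rise, 674 to 762 CPM against 1230.5 to 1258 CPM (log2 0.79, SE 0.07). Creld2, a disulfide isomerase-like protein that is a target of ATF6, was 82.1, 65.4, 82.8 and 71.1 CPM against 297, 294, 200.3 and 309 CPM, a 3.65-fold rise (log2 1.87, SE 0.15, adjusted p = 9.2e-05). Manf, a secreted ER stress protein, was 229 ± 23.8 CPM against 732 ± 115 CPM (SD, n = 4 each, log2 1.68). Hyou1, the nucleotide exchange factor of BiP, rose by 1.46 and Sdf2l1, a partner of the ER Hsp40 proteins, by 1.35 on the log2 scale. The J-domain cochaperones rose by 0.97 (Dnajb9), 0.96 (Dnajb11), 0.76 (Dnajc3) and 0.62 (Dnajc10).

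Of the isomerases, 4 of 5 rose. Pdia6 was 374, 333, 378 and 372 CPM against 1038, 1018, 703 and 1134 CPM (log2 1.42, SE 0.15, edgeR adjusted p = 0.00026), and Pdia4 rose by 1.19 and P4hb, protein disulfide isomerase itself, by 0.87. Pdia3, the most abundant member in unstimulated cells, rose from 1451, 1215, 1387 and 1315 CPM to 1849.6, 1832, 1595 and 1929.7 CPM (log2 0.42, SE 0.10, adjusted p = 0.0119). Pdia3 passed in 12 of 17 alternatives and was lost with no filter on low counts (adjusted p = 0.122), with the replicate block (adjusted p = 0.0544) and on the 3 TPM scales, where its change was 0.09 to 0.11 (adjusted p from 0.372 to 0.579). Fkbp2, a proline isomerase, was 48.9 to 54.4 CPM against 49.8, 49.7, 25.2 and 51.1 CPM. Only IL-33 stimulated replicate 3 left the unstimulated range, and without it the log2 fold change was -0.03, with a 95% interval of -0.15 to 0.10.

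Of the 7 components of ER-associated degradation, 5 rose, and 6 rose without IL-33 stimulated replicate 3. Edem2, a mannosidase that marks glycoproteins for removal, rose by 0.94 on the log2 scale, Syvn1, the ubiquitin ligase HRD1, by 0.79, and Edem1 by 0.63. On the TPM scales Edem1 was lost on all 3 (0.29 to 0.31, adjusted p up to 0.126) and Syvn1 on 2 (0.45, adjusted p up to 0.0576), and both passed under every other alternative. Derl1, a channel component, rose by 0.38 with an edgeR adjusted p of 0.0496, and Sel1l, the adaptor of HRD1, by 0.28. These calls are marginal, since each passed the threshold in only 7 of 17 alternatives, and both were lost without unstimulated replicate 3 or without IL-33 stimulated replicate 1, 2 or 4 (adjusted p from 0.0767 to 0.125). Both were also lost with the replicate block (adjusted p = 0.0893 for Derl1 and 0.0775 for Sel1l). Herpud1, which assembles the HRD1 complex, was 105, 108, 103 and 109 CPM against 168, 156, 93.9 and 182 CPM. Its 3 other stimulated libraries were all above the unstimulated range and replicate 3 was below it, which gave a log2 fold change of 0.50 (adjusted p = 0.0722) with all libraries and 0.67 (adjusted p = 7.41e-06) without replicate 3. Derl2 differed by 0.05 (95% interval -0.10 to 0.20), but passed as lower on the 3 TPM scales (-0.26 to -0.28).

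In translocation and signal peptide cleavage, 7 of 11 members rose, and 9 rose without IL-33 stimulated replicate 3. The translocon-associated subunits rose together, Ssr2 2.84-fold, and Ssr3 by 0.93 and Ssr1 by 0.74 on the log2 scale. Ssr2 was 146, 122, 123 and 127 CPM against 366, 367, 291 and 449 CPM. The channel subunits Sec61g and Sec61a1 rose by 1.17 and 0.69, while Sec61b, at 81.2 to 93.4 CPM, was 139.9, 139, 74.7 and 168 CPM in stimulated libraries. Sec61b was lowest of all 8 libraries in replicate 3, and its log2 fold change was 0.61 (edgeR adjusted p = 0.0673) with all libraries and 0.80 (adjusted p = 1.62e-05) without that library. The call of Sec61a1 was lost on the 3 TPM scales (0.34 to 0.35, adjusted p up to 0.159). Of the signal peptidase genes, Sec11c rose by 0.51 and Spcs2 by 0.26. Spcs2 passed in 7 of 17 alternatives and was lost without the same 4 libraries (adjusted p from 0.0856 to 0.0997) and with the replicate block (adjusted p = 0.0855). On the 3 TPM scales Spcs2 was below 0 and did not pass. Sec11c passed in 11 and was lost without unstimulated replicate 3 (adjusted p = 0.0544) or IL-33 stimulated replicate 1 (adjusted p = 0.0503), with no filter on low counts (adjusted p = 0.0685), and on the 3 TPM scales, where its change was 0.16 to 0.18 (adjusted p from 0.323 to 0.446). Spcs1 did not pass the threshold (0.31, adjusted p = 0.22), although it did without replicate 3 (0.48, adjusted p = 0.000288). Spcs3 was 696 to 791 CPM against 595 to 767 CPM (-0.09, adjusted p = 0.452), and the translocating-chain protein Tram1 was 340 to 391 CPM against 314 to 358 CPM (-0.10, adjusted p = 0.318). Both passed as lower in 4 of 17 alternatives, at -0.26 with library size alone and at -0.41 to -0.43 on the 3 TPM scales (lowest adjusted p 0.00504 for Spcs3 and 0.00112 for Tram1).

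Both COPII coat members, which form vesicles that leave the ER, rose. Sec23b was 124, 117, 112 and 122 CPM against 257, 249, 199.7 and 267 CPM (log2 1.04, SE 0.10). Sec24d was 82.6, 73.9, 79.0 and 80.0 CPM against 147, 142, 88.7 and 149 CPM (log2 0.74, SE 0.16), with replicate 3 only just above the unstimulated libraries, and its call was lost on the 3 TPM scales (0.37 to 0.39, adjusted p up to 0.148).

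**Figure D2:**
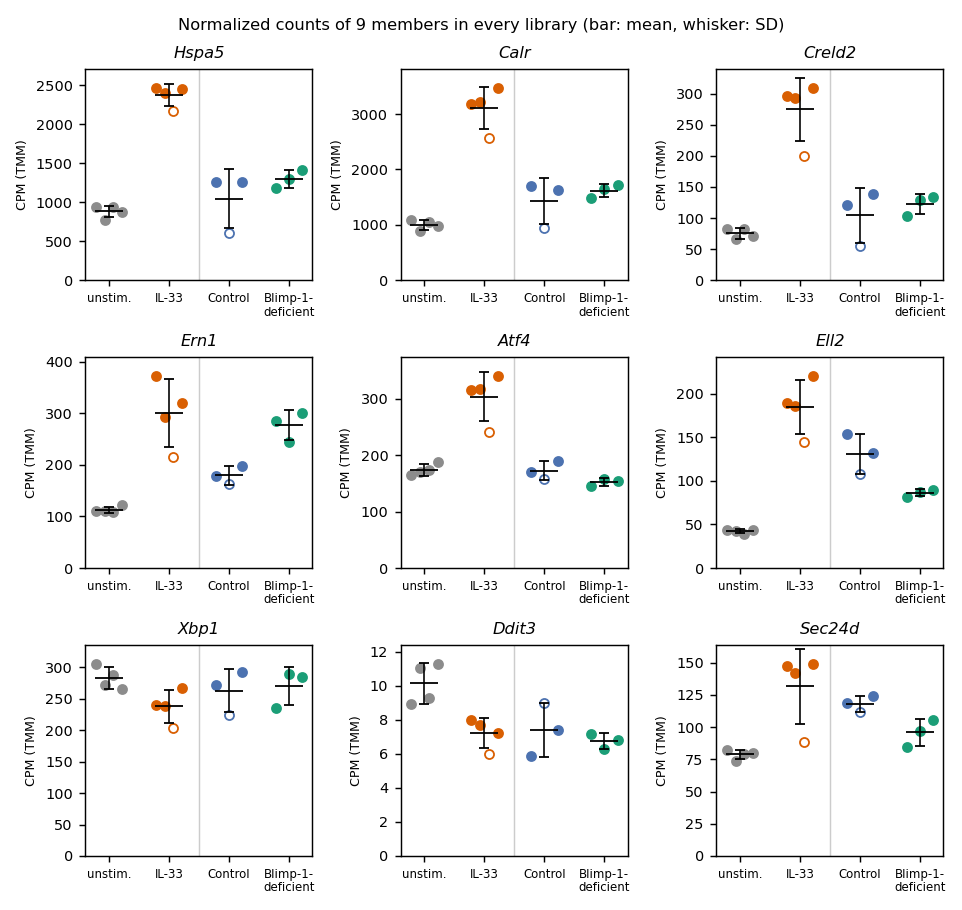
Normalized counts (CPM) of 9 members in each of the 14 libraries, with the mean (bar) and SD (whisker) of each group, where open circles mark IL-33 stimulated replicate 3 and Control replicate 2 and each panel starts at 0. Hspa5, Calr and Creld2 separate the unstimulated from the stimulated libraries, and in the Blimp-1 experiment Ern1 is higher and Ell2 and Sec24d lower in all 3 Blimp-1-deficient libraries.

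The other genes of the pathway, 108 genes listed by function, also rose more often than they fell. Of the 107 tested, 63 rose and 3 fell, with a median log2 fold change of 0.47, that is 58.9% and 2.80% where 16.2% and 16.1% of all genes tested rose and fell. Without IL-33 stimulated replicate 3, 79 rose and 9 fell, against 27.5% and 29.7% of all genes. On the 3 TPM scales 24, 24 and 28 of them rose and 15, 15 and 16 fell, where 6.80%, 6.77% and 7.6% of all genes rose and 30.7%, 30.0% and 31.4% fell. Of the 9 oligosaccharyltransferase genes 8 rose, of the 30 other coat and cargo receptor genes 24 rose, and of the 20 other UPR and integrated stress response genes 6 rose. The largest rises were in Atf3, a stress-induced factor downstream of ATF4 (2.25 ± 0.522 to 38.0 ± 13.6 CPM, SD, n = 4 each, log2 4.08), Pdia5 (4.06 ± 0.776 to 27.3 ± 6.99 CPM, 2.75) and the asparagine synthetase gene Asns, an ATF4 target (10.9 ± 1.44 to 48.9 ± 6.71 CPM, 2.16). The 3 that fell were Stt3b, a catalytic oligosaccharyltransferase subunit (1198 ± 70.1 to 581 ± 56.9 CPM, -1.04), Tram2 (27.0 ± 0.941 to 14.8 ± 3.31 CPM, -0.86) and the ER peroxiredoxin Prdx4 (102 ± 11.2 to 69.8 ± 12.6 CPM, -0.55).

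Since plasma cells carry this program at a high level, markers of other cells were read in the same libraries. Of the 12 B and plasma cell markers, Ms4a1, Pax5 and Tnfrsf17 were at 0 in all unstimulated libraries. The sum of the list was 67.7 to 85.6 CPM in unstimulated and 166 to 307 CPM in stimulated libraries, of which Irf4, which activated lymphocytes of other kinds also express, made up a mean of 42.0 and 225 CPM. T cell markers summed to 49.4 to 59.4 CPM and 16.1 to 26.4 CPM, and epithelial or stromal markers to 391 to 592 CPM and 231 to 429 CPM. Myeloid markers summed to 85.5 to 204 CPM and 40.2 to 123 CPM, and those of mast cells and basophils to 7.12 to 14.7 CPM and 0.0324 to 0.985 CPM. The part of these shifts in the members' values was not tested.

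In the Blimp-1 experiment, no secretory gene passed the test with all libraries. With all 6 libraries, 0 of the 43 members rose and 0 fell (edgeR quasi-likelihood test over 17335 genes), where 0.45% of all genes tested rose and 0.306% fell. At an unadjusted p below 0.05 the count was 1 higher (Ern1) and 2 lower (Ell2 and Sec24d), where 6.17% and 5.78% of all 17335 genes tested lay. DESeq2 called 1 higher (Ern1) and 1 lower (Ell2), against 1.84% and 1.82% of the 30196 genes for which it gave a log2 fold change. That total also holds any gene left without an adjusted p, so these shares can be too low. The median log2 fold change was 0.08, against -0.02 over all genes tested, and 29 members were above 0. The median of the members was 0.48 with library size alone, 1.78 on log2(TPM + 1), 1.87 on log2(TPM + 0.1) and 0.56 on rescaled TPM. Under these alternatives the median of all genes tested was also higher, as given with the processing. Without Control replicate 2, Ern1 rose and Ell2 and Sec24d fell, 1 and 2 members against backgrounds of 8.25% and 5.72%. The median was then -0.04, against 0.01 over all genes tested, and 14 members were above 0. The direction of the median thus changed with this library.

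**Figure D3:**
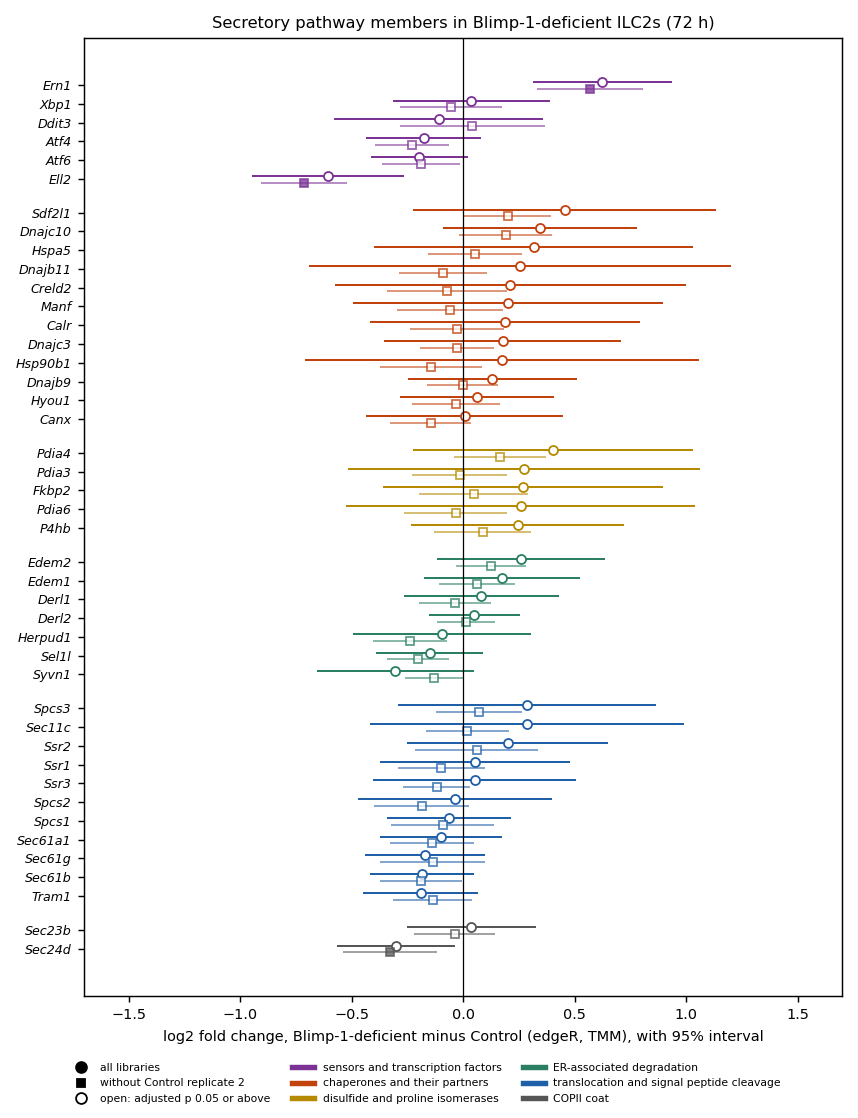
Each row is a member, grouped and coloured by role, and the horizontal axis is its log2 fold change, Blimp-1-deficient minus Control, with the 95% interval (circles, all 6 libraries; squares, without Control replicate 2; filled symbols, edgeR adjusted p below 0.05). The intervals of the chaperones and isomerases shrink without Control replicate 2, and only Ern1, Ell2 and Sec24d have a filled square.

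The libraries themselves show how far Control replicate 2 carries this comparison. The members summed to 16350.7 and 16556.8 CPM in Control replicates 1 and 3, to 9882.14 CPM in Control replicate 2, and to 14565.9, 16314.6 and 17064 CPM in the Blimp-1-deficient libraries. Control replicate 2 was the lowest of the 6 libraries for 31 members. Its ratio to the mean of the other 2 Controls had a median of 0.688 and ran from 0.336 for Dnajb11 to 1.39 for Syvn1. The same library had 2171 CPM of the collagen gene Col1a1, where the other 5 had 48.1 to 268 CPM, and the part of this in the members' values was not tested. The epithelial or stromal list summed to 179 to 2691 CPM in Control and 392 to 542 CPM in Blimp-1-deficient libraries.

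Among the sensors and transcription factors, Ern1 was 178, 162 and 198 CPM in Control and 284, 244 and 301 CPM in the deficient ILC2s. All 3 deficient libraries were above all Controls, the only member with that order. The log2 fold change was 0.62 (SE 0.13, edgeR adjusted p = 0.106) with all libraries and 0.57 (SE 0.10, adjusted p = 0.0127), or 1.48-fold, without Control replicate 2. It was above 0 in all 15 alternatives and passed the threshold in 2, with adjusted p from 0.000329 to 0.868. Ell2 was 154, 108 and 131 CPM against 81.8, 87.2 and 89.7 CPM. Every deficient library lay below every Control, with a log2 fold change of -0.61 (SE 0.14, adjusted p = 0.14) with all libraries and -0.72 (SE 0.08, adjusted p = 0.00291) without Control replicate 2. It was above 0 in 2 of 15 alternatives, both on TPM not rescaled (up to 1.16), and passed the threshold below 0 in 2.

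Xbp1, which Blimp-1 is needed to raise in plasma cells, was 272, 225 and 292 CPM in Control and 235, 289.5 and 284 CPM in the deficient ILC2s. The groups overlapped, and the log2 fold change of 0.04 (95% interval -0.31 to 0.38) became -0.06 (-0.28 to 0.17) without Control replicate 2. Atf6 was 96.7, 96.0 and 95.3 CPM against 78.2, 90.9 and 81.9 CPM, below every Control in every deficient library (-0.20, edgeR adjusted p = 0.453, and -0.19 with adjusted p = 0.125 without Control replicate 2). Atf4 was 157 to 190.4 CPM against 145 to 158 CPM (-0.18, adjusted p = 0.593), and Ddit3 was 5.86 to 9.01 CPM against 6.27 to 7.19 CPM (-0.11, adjusted p = 0.977).

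None of the 12 chaperones or 5 isomerases passed the threshold with or without Control replicate 2. Hspa5 was 1259.8, 607 and 1262 CPM in Control and 1185, 1299.8 and 1409 CPM in the deficient ILC2s. The second Control was the lowest of the 6 libraries, and the others lay inside the deficient range. The log2 fold change of Hspa5 was 0.31 (95% interval -0.40 to 1.03) with all libraries and 0.05 (-0.16 to 0.26) without that library. Calr was 1695, 946 and 1629 CPM against 1482, 1649.7 and 1726 CPM, 0.19 (-0.42 to 0.79) and -0.03 (-0.24 to 0.18). Hsp90b1 was 1774, 715 and 1897 CPM against 1481, 1697 and 1774 CPM, 0.17 (-0.71 to 1.05) and -0.14 (-0.37 to 0.08). Over all 12 chaperones and partners, 12 log2 fold changes were above 0 with all libraries and 3 without Control replicate 2. Pdia4 had the same direction in both, 0.40 (-0.22 to 1.02) and 0.16 (-0.04 to 0.37), as did Sdf2l1, 0.45 (-0.22 to 1.13) and 0.20 (0.01 to 0.39).

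Of the degradation and translocation genes none passed the threshold either. Without Control replicate 2, the lowest adjusted p were those of Sel1l (-0.20, edgeR adjusted p = 0.056) and Herpud1 (-0.24, adjusted p = 0.0599). Herpud1 was 109, 73.3 and 107 CPM in Control and 83.2, 92.8 and 95.9 CPM in deficient ILC2s, so that Control replicate 2 alone lay below the deficient libraries. Sel1l was 165, 142 and 163 CPM against 135, 144 and 146 CPM. Syvn1, the partner of Sel1l, was 84.7, 118 and 85.9 CPM against 77.5, 74.7 and 80.2 CPM and was the member with the highest relative level in Control replicate 2. In the COPII coat, Sec24d was 118, 112 and 124 CPM against 84.9, 97.1 and 106 CPM. Each deficient library lay below each Control, and the log2 fold change was -0.30 (SE 0.11, adjusted p = 0.338) with all libraries and -0.33 (SE 0.09, adjusted p = 0.0485) without Control replicate 2. It was above 0 in 4 of 15 alternatives, with library size alone and on the TPM scales (0.16 to 1.45). Sec23b was 118 to 145 CPM against 126 to 149 CPM, a difference of 0.04 (adjusted p = 0.955).

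Counted by separation, 1 member (Ern1) had every deficient library above every Control, 6 (Atf6, Ell2, Syvn1, Sec61b, Tram1 and Sec24d) had every deficient library below, and 36 overlapped. In all genes tested the shares were 11.8% above and 10.8% below. Without Control replicate 2 it was 1 above, 14 below and 28 overlapping, with 24.4% and 26.7% in all genes.

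The intervals give an approximate size of change that these libraries leave room for. Each SE was derived from the log2 fold change and the F statistic of the edgeR test, and the interval from the SE. An interval can therefore depart from the p-value of its gene. Without Control replicate 2, the 95% interval of all 43 members lay between -1 and 1 on the log2 scale, and that of 41 lay between -0.58 and 0.58, which is 1.5-fold in either direction. The exceptions to the narrower range were Ern1 and Ell2. With all libraries, 36 members had an interval between -1 and 1, and those that did not were Hspa5, Hsp90b1, Sdf2l1, Dnajb11, Pdia3, Pdia4 and Pdia6.

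**Figure D4:**
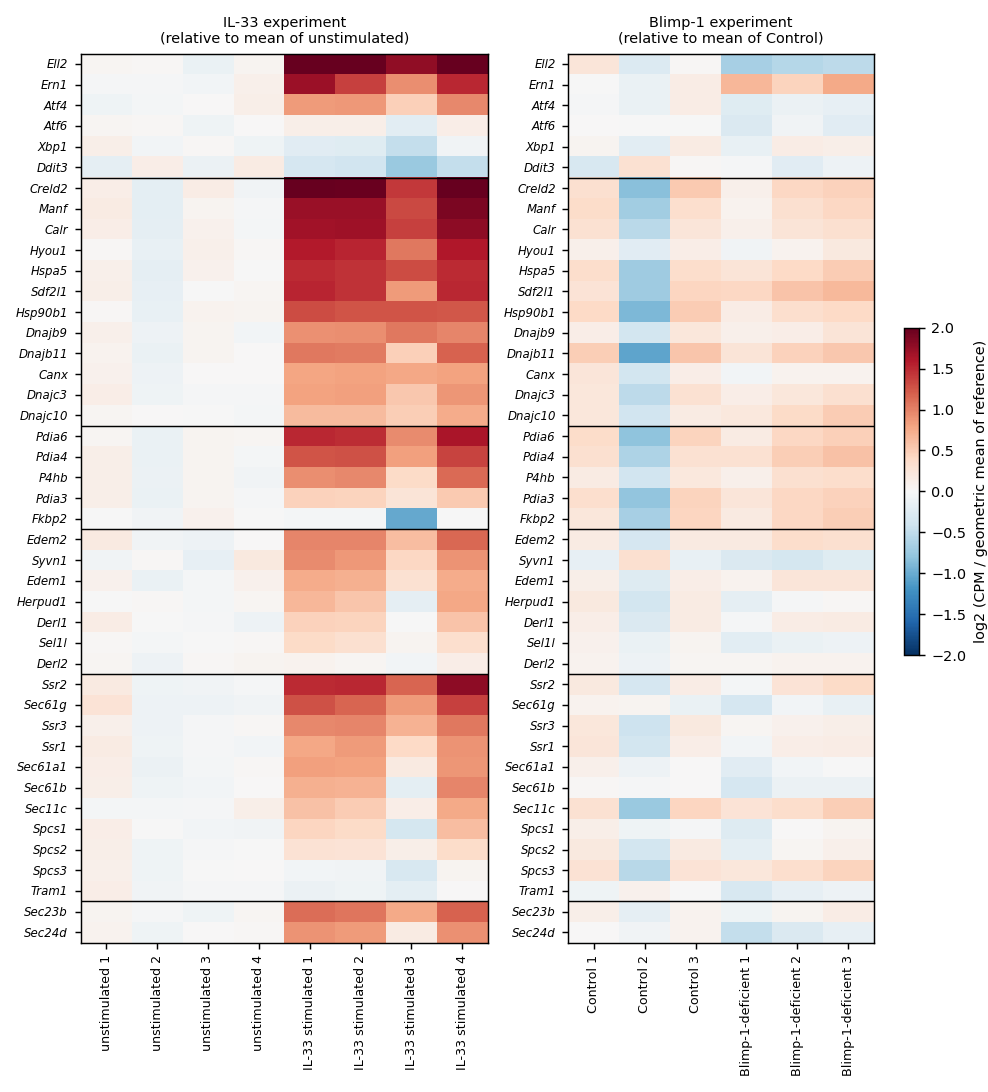
Log2 of the CPM of each member (rows, grouped by role) in each library (columns), relative to the geometric mean of the unstimulated libraries (left) or of the Controls (right), red for higher and blue for lower, with the colour limited to 2 in either direction. The chaperone block is red in all 4 stimulated libraries and paler in replicate 3 for most members, and in the Blimp-1 experiment the blue column is Control replicate 2.

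Of the 108 other secretory pathway genes, 0 rose and 0 fell in Blimp-1-deficient ILC2s with all libraries (edgeR), with 6 higher and 5 lower at an unadjusted p below 0.05 and 2 higher and 2 lower by DESeq2. Without Control replicate 2, 5 rose and 8 fell. These are shares of 4.63% and 7.41%, beside 8.25% and 5.72% of all genes tested. The B and plasma cell list summed to 265 to 310.1 CPM in Control and 347 to 421 CPM in Blimp-1-deficient libraries, again mostly Irf4 (a mean of 238 and 350.4 CPM), with Ms4a1 and Tnfrsf17 at 0 in all 3 Controls and Jchain at 0 in all 3 deficient libraries.

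Some members share sequence with other genes, which bears on their counts. Stretches of 75 bases, the read length, that also occur in another gene made up over 5% of the gene in 6 members, led by Sec61g (13.7%), Sec61b (10.1%) and Spcs1 (8.80%). Exons of Spcs1 overlap Glt8d1 on the opposite strand over 16.3% of their length, those of Ssr2 overlap Gm10704 over 12.8%, those of Hsp90b1 overlap 1810014B01Rik over 10.3% and those of Sec61a1 overlap Gm44170 over 8.16%. Whether strand was used in counting is not stated, so the values of these 4 members are uncertain to that extent. GENCODE gives the symbol Ddit3 to 2 identifiers, and the tables hold it under 1 name.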

How the data were processed

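RNA-seq libraries were prepared by the authors with SMART-seq v4 and Nextera XT, trimmed with cutadapt, aligned to GRCm38 and counted per gene with Subread; the study's methods give HISAT2 as the aligner, and the submitters' processing notes name Bowtie2. The deposited counts are raw whole numbers. The deposited TPM are the counts divided by gene length and scaled by the authors to 1000000 per library. All value columns were used.

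The members, the 108 other pathway genes and the marker lists were chosen with earlier results of these data known. All members are named, and of the other pathway genes the 3 largest changes in each direction that passed with and without the library in doubt. Counts were tested with edgeR 4.0.16 in R 4.3.3 (TMM, filterByExpr, quasi-likelihood test, two-sided) over all genes of each experiment, with Benjamini-Hochberg adjustment and a threshold of 0.05. Libraries come from separate mice per the series description, and 3 counts correspond to 0.031 to 0.731 CPM. Alternatives were DESeq2 1.42.0, edgeR with RLE factors or with library size alone, other filters, limma 3.58.1 on log2 TPM with a pseudocount of 1 or 0.1, TPM rescaled without the 7 loci, the replicate number as a block, and each library left out in turn. Gene models are GENCODE M21, in which 38 of 43 members have the length given in the count table. Promoters are those of RefSeq. Figures were drawn with matplotlib 3.10.9. Chromatin data were not used here.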

Additional observations from a re-analysis of the deposited data

Results flagged for a closer look

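In groups of 4 libraries, the highest or lowest library of a member was compared with the rest by Dixon's test at the 95% level, which chance alone passes in about 1 in 20 groups. It passed in 13 of 86 tests, and in 9 of them the library was IL-33 stimulated replicate 3, as the lowest. These were Atf6 (101 CPM), Hyou1 (641 CPM), Sdf2l1 (178 CPM), Creld2 (200.3 CPM), Fkbp2 (25.2 CPM), Edem1 (334 CPM), Syvn1 (74.7 CPM), Sec61a1 (374 CPM) and Sec24d (88.7 CPM). Among unstimulated libraries, Ern1 (122 CPM) and Sec11c (259 CPM) were high in replicate 4, Sec61g (56.7 CPM) was high in replicate 1 and Pdia6 (333 CPM) was low in replicate 2. The values of IL-33 stimulated replicate 3 go with its depth, the lowest of its experiment, and the part of depth in them was not tested.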

How the results depend on the processing

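After IL-33, the number of members that rose was 24 to 35 under the alternatives that kept every library and 29 to 36 with a library left out. The share of all genes that rose is not given for each of these alternatives. The number that fell was 0 with all libraries and became 1 with RLE, 4 with library size alone, 2 with DESeq2, 2 with a mean count of at least 50, and 5 on log2(TPM + 1), log2(TPM + 0.1) and rescaled TPM, and 0 to 2 with a library left out. Of all genes tested, 23.9% fell with library size alone and 30.7%, 30.0% and 31.4% on the 3 TPM scales, against 16.1% with TMM factors. The median of the members, 0.79, was 0.45 on log2(TPM + 1), 0.45 on log2(TPM + 0.1) and 0.46 on rescaled TPM, where the median of all genes tested moved from 0.06 to -0.25, -0.29 and -0.23. Relative to all genes the members stayed higher. Of the other pathway genes, 24, 24 and 28 rose and 15, 15 and 16 fell on these 3 scales, 8 fell with library size alone, and 2 to 9 fell with a library left out. Of single members, Sel1l (-0.054, -0.055, -0.040), Derl2 (-0.27, -0.28, -0.26) and Spcs2 (-0.071, -0.071, -0.056) changed direction on log2(TPM + 1), log2(TPM + 0.1) and rescaled TPM in that order. A change of direction was counted where either value passed the threshold.

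In Blimp-1-deficient ILC2s, 1 member rose and 1 fell with DESeq2, and 0 to 1 rose and 0 to 2 fell with a library left out, both highest without Control replicate 2. Of the other pathway genes, 2 rose with DESeq2 and 2 with a mean count of at least 50, 1 fell with RLE, 2 with DESeq2 and 1 with a mean count of at least 50, and 0 to 5 rose and 0 to 8 fell with a library left out. The median of the members, 0.08, was 0.48 with library size alone, 1.78 on log2(TPM + 1), 1.87 on log2(TPM + 0.1) and 0.56 on rescaled TPM, where the median of all genes tested was 0.45, 1.28, 1.69 and 0.42. Control replicate 2 had 93.9% of its TPM on the 7 loci. The members summed to 307 TPM in that library, against 17754.7 TPM in Control replicate 1 and 18858.3 TPM in Control replicate 3. The part of this in the medians was not tested. With a library left out the median of the members was -0.039 to 0.19, and the lowest of these, -0.039 without Control replicate 2, is below 0.

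The labels use the same mouse numbers in both groups of each experiment, while the series description gives separate mice. Same-numbered libraries did not deviate together throughout (correlations -0.14, 0.22, 0.28 and 0.18 after IL-33, and -0.13, -0.13 and 0.12 in the Blimp-1 experiment), so the numbers were not taken as pairs. With the replicate block, 29 members rose and 0 fell after IL-33 (median 0.79), with Pdia3, Derl1, Sel1l and Spcs2 no longer past the threshold (adjusted p from 0.0544 to 0.0893), and 0 rose and 0 fell in Blimp-1-deficient ILC2s (median 0.09). Depth limits the members in Control replicate 2, where the lowest had 37 counts. Intervals cover the spread between these mice.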
